A study of Hordeum vulgare with 12 samples.

Results

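VRS5 peaks were counted as adjacent where the summit of one lay less than 1000 bp from the summit of another on the same chromosome. Of the 99518 VRS5 peaks on barley chromosomes 1H to 7H, 3019 met this rule, a share of 3.03% (95% Wilson interval 2.93 to 3.14). They formed 1497 runs, in which each summit lies under 1 kb from the next. Of these runs, 1474 were pairs, 22 held 3 peaks and 1 held 5 peaks. A further 49 peaks of the list, on sequence without a chromosome, were left out. The summits themselves chose these peaks, so that their distances and heights are given as a description, with no test.

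The peaks come from DNA-affinity purification followed by sequencing (DAP-seq), in which purified genomic DNA fragments are offered to a tagged protein translated outside the cell, and the fragments pulled down through the tag are sequenced. There were 6 libraries with VRS5-FLAG as bait (TB1-FLAG in the labels) and 6 with GFP-FLAG, the control protein that should bind no DNA. Genomic DNA of all 12 libraries was from cultivar Morex, taken from 100 mg of developing inflorescences per replicate, 4 weeks after sowing and at about Waddington stage 4. The VRS5 coding sequence came from cultivar Bowman, carried FLAG at the C-terminus and was translated in wheat germ extract, and the DNA held no chromatin. Because the reads were pooled per bait ahead of peak calling, no value below has a replicate error. The intervals given cover counting error only and treat peaks or runs as independent.

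VRS5 is the barley counterpart of TEOSINTE BRANCHED1 of maize, a transcription factor of the TCP family. It restrains the outgrowth of tiller buds and the development of the lateral spikelets. TCP proteins bind short GC-rich sites as dimers. Several binding sites of one factor can lie side by side in a stretch of DNA, where fragments of a DAP-seq library may carry one or more of them. The height of a peak is given here as its pileup, the number of VRS5-FLAG reads stacked at the summit. The GFP-FLAG background is the number of reads expected there from the control libraries, and the fold enrichment sets the first over the second, each with 1 added.

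Within the 1474 pairs, the median distance between both summits was 657 bp, with quartiles of 502 and 822 bp. The closest summits were 283 bp apart and the farthest 999 bp. Distances near the lower end were not evenly filled. Over all 1522 steps between neighbouring summits under 1 kb, 1 was shorter than 300 bp, 30 were 300 to 399 bp long and 333 were 400 to 499 bp long (95% Poisson interval 298 to 371). The class of 500 to 599 bp held 279 steps (247 to 314). From there the counts were lower and nearly level, between 211 and 237 in each class of 100 bp up to 999 bp. Beyond the threshold of 1 kb the counts varied more, with 196 steps of 1100 to 1199 bp as the lowest and 290 of 1600 to 1699 bp as the highest count up to 3 kb.

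**Figure D1:**
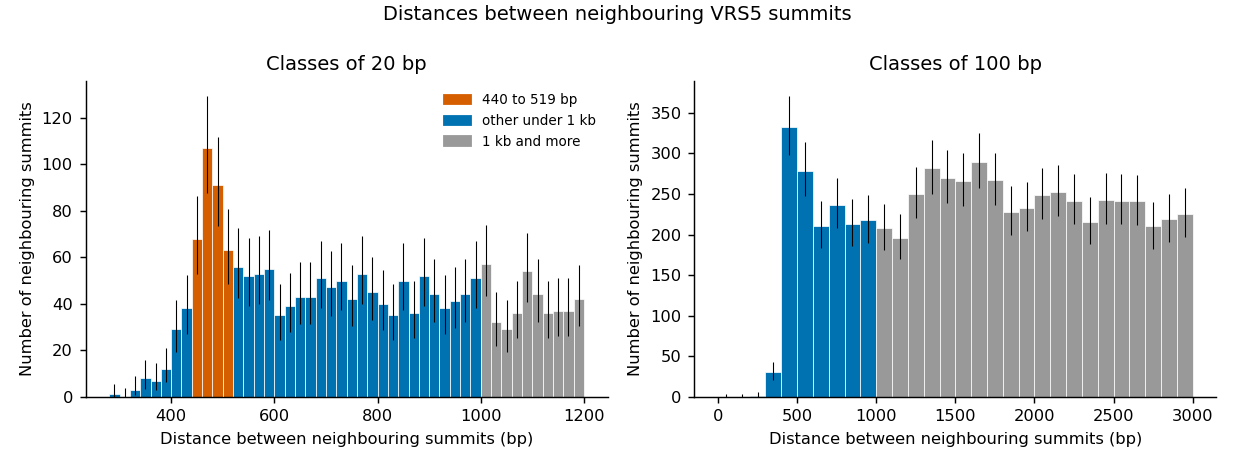
Number of neighbouring VRS5 summits (vertical axes) by their distance in bp (horizontal axes), in classes of 20 bp (left) and 100 bp (right), with 95% Poisson intervals. Counts are highest at 460 to 479 bp, where 107 steps fall, and the counts on both sides of the 1 kb threshold are close, with 218 steps at 900 to 999 bp and 208 at 1000 to 1099 bp.

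In classes of 20 bp, the excess of short distances was narrow. There were 68 steps of 440 to 459 bp, 107 of 460 to 479 bp, 91 of 480 to 499 bp and 63 of 500 to 519 bp. Between 600 and 999 bp no class of this width held more than 53 steps and none fewer than 35. No single distance dominated, since at most 10 steps had exactly the same length, at 461 bp and at 481 bp. Together the 329 steps of 440 to 519 bp made up 21.6% of all steps under 1 kb (19.6 to 23.7). They were found on all 7 chromosomes, with 31 on 1H as the fewest and 59 on 7H as the most.

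Neighbouring peaks can be told apart only where the caller leaves a gap between them. The smallest gap between the edges of any neighbouring peaks in the list was 162 bp and the narrowest peak was 161 bp wide. The median gap of the steps of 440 to 519 bp was 210 bp, with quartiles of 185 and 241 bp, against 390 bp at the other distances under 1 kb. Peaks 300 to 399 bp apart had a median width of 242 bp and a median gap of 185.5 bp. The part of peak width and gap in the low counts below 400 bp was not tested. At short distances the summits also lay towards each other within their peaks. In 85.9% of the steps of 400 to 499 bp the summits were closer than the middles of the peaks (81.7 to 89.2). This share was 73.8% at 500 to 599 bp and 55.5% at 600 to 699 bp, and 45.9% at 900 to 999 bp. The distance class is itself defined by the summits, so that this is a description of their shape.

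The peaks 440 to 519 bp apart were also tall. The higher peak of each such step had a median pileup of 77 and the lower one 59, against 66 and 51 in the 1193 steps at other distances under 1 kb. Both pileups were above 77, which puts a peak in the upper 10% of all peaks, in 35 of the 329 steps (10.6%, 7.75 to 14.4) and in 25 of the 1193 others (2.10%, 1.42 to 3.08). The fold enrichment did not differ in this way, with medians of 4.75 and 4.69 for the higher peaks and 3.75 in both sets for the lower peaks. The GFP-FLAG background moved with the height, with a median of 15.3 at 440 to 519 bp and 13.2 at the other distances. In 4 of 5 classes of background both medians were higher at 440 to 519 bp. At a background of 16 to 18, for example, the median pileups were 86.5 and 65 at 440 to 519 bp and 75 and 59 at other distances. In the class below a background of 12 the order of the higher peaks turned, with 51 against 57, while the lower peaks had a median of 44 in both sets. The part of the background in the height was not tested.

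Pileup within pairs was well balanced. The higher peak stood at a median of 1.24 times the lower one, with quartiles of 1.1 and 1.45. In 361 pairs (24.5%, 22.4 to 26.8) the higher pileup was at most 1.1 times the lower, and in 30 pairs both pileups were the same. A ratio of at least 1.5 was found in 317 pairs (21.5%, 19.5 to 23.7) and a ratio of at least 2 in 55 (3.73%, 2.88 to 4.83). Neighbouring peaks farther apart were balanced to a like degree, with median ratios of 1.24 at 1 to 2 kb, 1.21 at 2 to 5 kb and 1.23 at 5 to 10 kb.

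**Figure D2:**
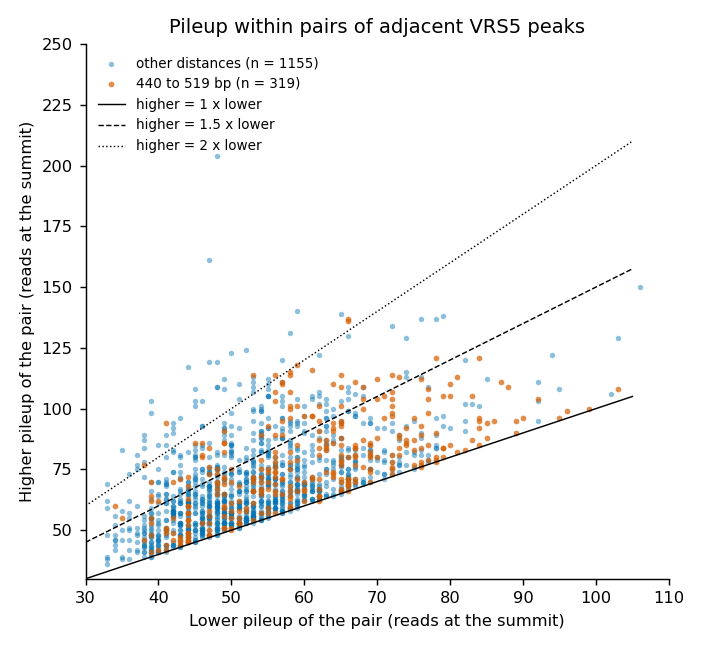
Higher against lower pileup (reads at the summit) of the 1474 pairs, each point a pair, with lines at ratios of 1, 1.5 and 2. Most pairs lie below the line for 1.5. Pairs 440 to 519 bp apart (orange) reach up to 137 on the vertical axis, and pairs at other distances up to 204.

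The higher peak lay on the side of higher coordinates in 713 of the 1444 unequal pairs (49.4%, 46.8 to 52.0). In 1017 of these pairs (70.4%, 68.0 to 72.7) the peak with the higher pileup also had the higher fold enrichment, and in 955 (66.1%, 63.6 to 68.5) it had the higher background. The median ratio between both backgrounds of a pair was 1.19. With fold enrichment in place of pileup the median ratio of a pair was 1.21, and with the background subtracted from the pileup it was 1.28.

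The most unequal pair of all lay on chromosome 6H from 340560189 to 340561518, with pileups of 48 and 204 at summits 901 bp apart, a ratio of 4.25. Its second peak was the tallest on 1H to 7H, with a fold enrichment of 9.19 over a background of 21.3, and the pair lay 34.7 kb from LOC123403951. Among the 60 pairs with both pileups in the upper 10%, the most equal lay on 2H from 553357510 to 553358358, with a pileup of 78 at both summits, 466 bp apart. The least equal of these 60 lay on 5H from 244775324 to 244776332, with pileups of 78 and 137 at 537 bp. The pair of the highest summed pileup lay on 6H from 126949563 to 126950871, with 106 and 150 reads at 862 bp, and LOC123402306 was 27.7 kb away.

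Adjacent peaks were seldom among those enriched 10-fold or more, a limit chosen after the values were seen. No run held more than 1 peak of this enrichment. Of the adjacent peaks, 5 reached this enrichment (0.166%, 0.0708 to 0.387), against 445 of the other 96499 peaks (0.461%, 0.420 to 0.506). The highest of the 5, on 3H from 332448364 to 332448721, was enriched 12.5-fold with a pileup of 161, and its neighbour 557 bp away was enriched 4.62-fold with a pileup of 47. Next to it came a peak on 3H from 177404680 to 177405117, enriched 12.4-fold, with a neighbour at 5.53-fold. For all 5, the first other peak of the run had a lower enrichment, from 3.92-fold to 6.4-fold. Peaks enriched 10-fold were rare among adjacent and other peaks alike, so that a lower neighbour says little about runs. By pileup, adjacent peaks were more frequent at the top. They made up 5.39% of the peaks with a pileup of 78 to 204 (4.96 to 5.86). Among peaks with a pileup of 33 to 41, their share was 1.79% (1.55 to 2.06).

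Adjacent peaks as a whole had a median pileup of 59 against 53 for the other peaks, a median width of 301 bp against 272 bp and a median fold enrichment of 4.15 against 4.39. The GFP-FLAG background was higher at adjacent peaks, with medians of 13.5 and 10.9. When all peaks were split into 5 classes of like size by this background, adjacent peaks made up 1.35%, 1.49%, 2.39%, 3.68% and 6.27% from the lowest to the highest class. Within the highest class, adjacent peaks had a median pileup of 68 and the others 65, and within the lowest 43 and 45. The order of the fold enrichment turned with the background, since its median was 4.89 for adjacent and 5.08 for other peaks in the lowest class, but 4.17 against 4.09 and 3.74 against 3.69 in the classes of highest background. Greenscreen regions, which the authors defined by high read numbers in the control libraries, were also closer. A summit within 10 kb of such a region was found for 307 runs (20.5%, 18.5 to 22.6), where 11.8% of all peaks met this rule. No greenscreen region lay between the summits of any of the 1522 steps. Whether background or nearby greenscreen regions set where peaks are adjacent was not tested.

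Adjacent peaks were spread over the genome. Their share of all peaks lay between 2.74% on 1H (2.46 to 3.04) and 3.25% on 6H (2.96 to 3.56), and between 2.72% and 3.37% over 10 equal parts of the chromosomes' length. The nearest summit outside the run was at a median of 11.4 kb, against 11.8 kb between the other peaks and their nearest summit. A further summit 1 to 5 kb away was more frequent for runs (23.9%, 21.8 to 26.1) than for other peaks (20.5%, 20.3 to 20.8).

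Runs of 3 or more peaks were rare, with 23 of the 1497 (1.54%, 1.03 to 2.29) and 71 peaks. The 22 runs of 3 spanned 937 to 1944 bp between their outer summits, with a median of 1411 bp. The highest pileup stood at 1.18 to 2.10 times the lowest, with a median of 1.45. It was at the middle summit in 9 of these runs, at the summit of lowest coordinates in 6 and at that of highest coordinates in 7. Both distances of a run differed by a median of 120.5 bp, with quartiles of 52.3 and 204.5 bp. In 6 of the 22 runs they were equal to within 50 bp. The closest were the run on 5H with steps of 546 and 550 bp and the run on 4H with steps of 758 and 754 bp. The former had pileups of 67, 71 and 54 and the latter 88, 73 and 61. All steps under 1 kb have lengths between 283 and 999 bp, so that some will be alike. Whether 6 runs are more than unrelated steps would give was not tested.

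**Figure D3:**
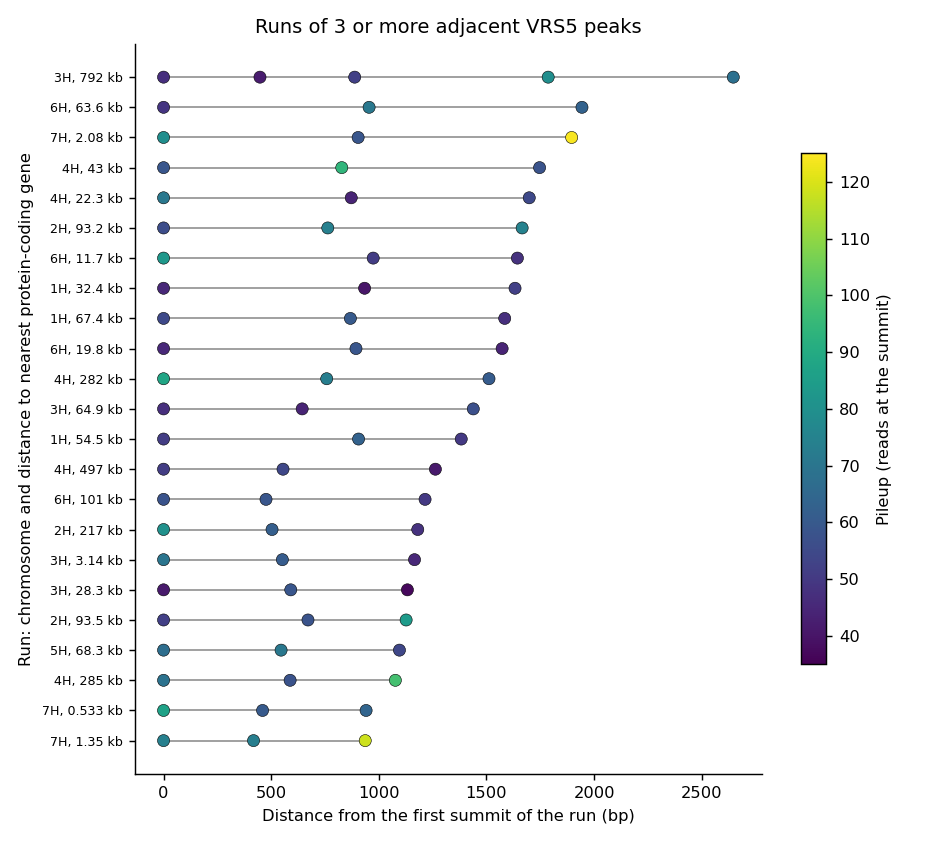
The 23 runs of 3 or more adjacent VRS5 peaks, each a line of points placed by bp from the first summit and coloured by pileup, with the chromosome and the distance to the nearest protein-coding gene at the left. The run of 5 on 3H spans 2647 bp, and pileups of 118 and 124 close 2 of the runs on 7H.

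The only run of more than 3 peaks lay on 3H from 236408413 to 236411720. Its 5 summits had pileups of 47, 42, 52, 79 and 68, separated by 448, 440, 899 and 860 bp. The distances thus fell into 2 short and 2 long steps, the long ones about as long as the short ones together. The fourth peak was the strongest, with a fold enrichment of 6.43 over a background of 11.4, and the fifth had 3.91 over 16.6. The summed pileup of 288 was the highest of all runs. The nearest protein-coding gene, LOC123439832, was 792 kb away, so that no gene lay within 15 kb of it.

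Next in summed pileup came 2 runs of 3 on chromosome 7H that lay close to genes. One, from 237911773 to 237913614, had pileups of 74, 73 and 118 at steps of 418 and 519 bp, over backgrounds of 10.7, 10.7 and 10.5. The third peak was enriched 10.3-fold, and its first summit lay 1.35 kb from LOC123412860. The other, from 516861115 to 516863464, had pileups of 79, 59 and 124 at steps of 904 and 992 bp, and lay 2.08 kb from LOC123407259. Here the backgrounds were 10.9, 17.1 and 23.9, and the fold enrichment was 5.02 at the third peak and 6.69 at the first peak.

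Distances to genes were measured from the summits to the 30627 protein-coding genes of the RefSeq annotation of MorexV3, from gene start to gene end, and the closest summit of a run stood for the run. This measure was not used to choose the peaks. Within 15 kb of a gene, the distance within which the study assigned target genes, lay 165 of the 1497 runs (11.0%, 9.53 to 12.7), where 11.8% of all peaks met this rule. The study counted from all predicted open reading frames, another set of genes, and reported a higher share, so that 11.8% is not its figure. Within 5 kb it was 69 runs (4.61%, 3.66 to 5.79), against 4.42% of all peaks, and within 100 kb 860 runs (57.4%, 54.9 to 59.9), against 57.5%. The median run lay 79.3 kb from a gene (72.3 to 85.8), and the median of the peaks that were not adjacent was 80.1 kb. At these distances, runs and other peaks did not differ beyond the counting intervals.

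**Figure D4:**
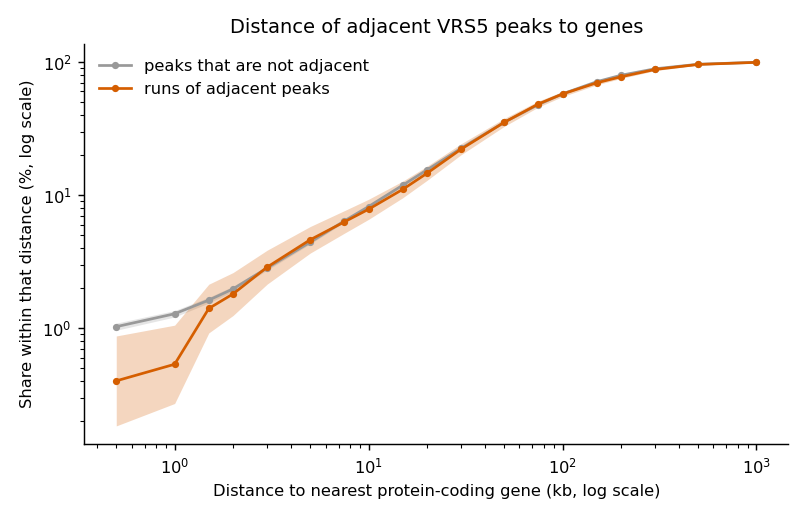
Share of runs of adjacent peaks and of other VRS5 peaks (%, log scale) within a given distance of a protein-coding gene (kb, log scale), with 95% Wilson intervals as bands. The curves run together from 2 kb on and part at 1 kb and below.

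Within 1 kb of genes the runs were fewer. At 1 kb or less from a gene, gene bodies included, there were 8 runs (0.534%, 0.271 to 1.05), against 1.26% of all peaks, and the interval of the runs did not reach that value. Inside a gene there were 5 runs (0.334%, 0.143 to 0.780), against 0.786% of all peaks, with an interval that ended just below this value. With every annotated gene taken, 0.868% of runs lay inside a gene (0.508 to 1.48), an interval that includes the 1.36% of all peaks. Within 2 kb the share was 1.80% (1.24 to 2.61) for 27 runs, against 1.95%, a value inside the interval. From 1 to 2 kb the count of runs rose from 8 to 27, and that of all peaks from 1249 to 1943. In this band runs were thus more frequent than all peaks, relative to their totals of 1497 and 99518. The comparison depends on the unit. Taken as single peaks, 14 of the 3019 adjacent peaks lay within 1 kb and 43 within 2 kb. The latter is a share of 1.42% (1.06 to 1.91), an interval that ends below the 1.95% of all peaks. Peaks of a run share their place, so that this interval is too narrow. Peaks whose nearest summit was 1 to 2 kb away lay between runs and all peaks only inside genes and within 1 kb. They had 0.630% inside a gene (0.442 to 0.898) and 0.903% within 1 kb (0.671 to 1.21). At wider windows they lay below both, with 1.43% within 2 kb (1.13 to 1.81) and 10.35% within 15 kb (9.52 to 11.25). Within 100 kb their share was 54.4% (53.0 to 55.8). The shares of runs up to 2 kb rest on few runs. A run also counts by its closest summit, which gives it more than 1 chance to lie near a gene.

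Of the 6 genes with a pair of adjacent summits of 1 run inside them or within 1 kb, 5 held both summits in the gene body, 4 of them on chromosome 6H. LOC123403387, an 11.0 kb gene from 151491444 to 151502464, had pileups of 66 and 62 at summits 868 bp apart. LOC123401451, 16.9 kb long from 102710144 to 102726997, had 41 and 80 at 597 bp, the least equal of these pairs. LOC123401746, from 558006311 to 558017494, had 65 and 54 at 558 bp. LOC123402780, from 62691826 to 62705534, had 53 and 61 at 339 bp, among the shortest distances in the list. LOC123411041 on 7H, from 252484755 to 252497299, had 46 and 40 at 571 bp. In all 5 genes the summits lay at least 2308 bp from either end of the gene. Their fold enrichments were between 3.04 and 6.25. The annotation used does not separate their exons from their introns.

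LOC123409223 on 7H, from 531901479 to 531907817, was the only gene with a run of 3 this close. Its summits lay beyond the end of higher coordinates, at 533, 993 and 1474 bp, with pileups of 87, 60 and 64 and fold enrichments of 4.46, 3.57 and 5.06. The steps of 460 and 481 bp both fall in the class of 440 to 519 bp. Among the 23 runs of 3 or more, 5 lay within 15 kb of a gene (21.7%, 9.66 to 41.9), an interval that includes the 11.8% of all peaks.

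Over the whole annotation, 199 protein-coding genes (0.650%, 0.566 to 0.746) had a run within 15 kb. LOC123431084 on 2H, from 638820932 to 638821664, was the only one with 2 runs. The first had pileups of 44 and 67 at 918 bp, 1.13 kb from the gene, and the second 85 and 41 at 682 bp, 3.09 kb from it. SOC1-like, a gene of a MADS-box transcription factor that the study names, was matched to LOC123437294 on 1H. It had no run within 15 kb, and the nearest adjacent peak was 1426.5 kb away. The study reports a VRS5 peak upstream of this gene and binding of VRS5 to a site in that peak. The values here cover adjacent peaks only. Of other genes, pseudogenes held a summit of 8 runs in their body (0.534%, 0.271 to 1.05), against 0.535% of all peaks, and had 29 runs within 15 kb (1.94%, 1.35 to 2.77), against 2.77%. Genes of long non-coding RNA had 17 runs within 15 kb (1.14%, 0.710 to 1.81), against 1.68%. A single run lay this close to a tRNA gene and a single one to an rRNA gene (0.0668% in both cases, 0.0118 to 0.377), against 0.259% and 0.0442% of all peaks.

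Pairs sometimes lay near other pairs. In 31 cases 2 neighbouring runs were less than 20 kb apart, 13 of them at 8 to 12 kb. Spacing of this order was common in the list, since other peaks had their nearest summit at a median of 11.8 kb. Of the 28 such cases with a pair on both sides, 5 had distances within 20 bp of each other. All pairs have distances between 283 and 999 bp, so that some will be alike. Whether 5 is more than pairs taken from anywhere would give was not tested. On 6H, pairs 10.6 kb apart both had summits at 741 bp, with pileups of 38 and 56 in the first and 46 and 44 in the second. On 3H, pairs 5.25 kb apart had summits at 849 and 850 bp, with pileups of 50 and 44 and of 58 and 85, the last enriched 10.4-fold.

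The largest group of such pairs lay on chromosome 4H, from 544609866 to 544656527. Joining neighbouring summits less than 3 kb apart into chains put 16 peaks into one chain and 12 into the next, 4.06 kb farther on, and no other chain on 1H to 7H held more than 6 peaks. These 28 peaks spanned 46.2 kb, on a chromosome with 24.6 peaks per Mb. Of them 8 were adjacent peaks, in 4 pairs with pileups of 47 and 64, 53 and 56, 58 and 57, and 67 and 69. The distances within the pairs were 630, 979, 996 and 952 bp, so that 3 of the 4 were just under the threshold of 1 kb. Both peaks of these 3 pairs were close in height, and those of the first pair less so. Neighbours that were not adjacent could be as close, with 77 and 77 at 3.695 and 4.978 kb from the first summit. The 8 adjacent peaks ranged from 47 to 69 with a median of 57.5, and the other 20 peaks of the stretch from 37 to 121 with a median of 69.5. The tallest had a fold enrichment of 11.8 and was not adjacent to another.

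**Figure D5:**
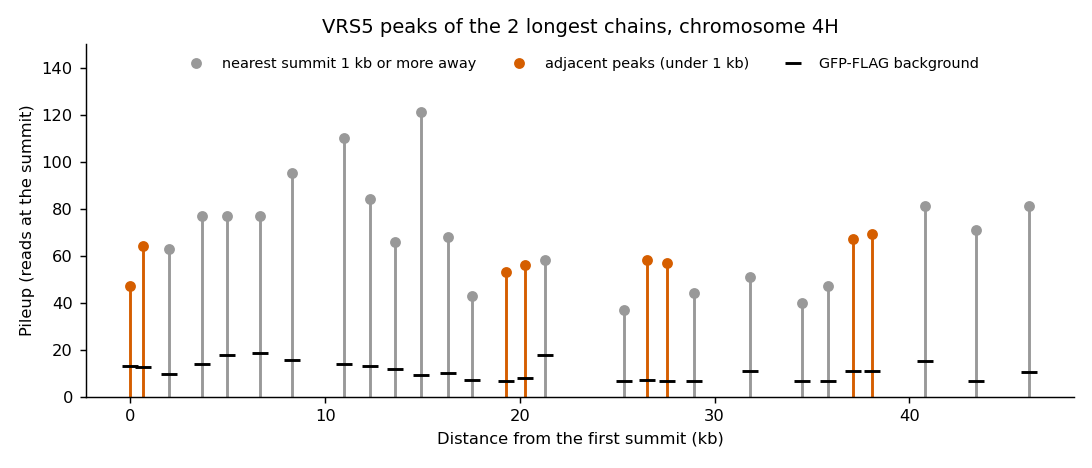
Pileup (reads at the summit) of the 28 VRS5 peaks of the 2 longest chains, by distance in kb from the first summit, with adjacent peaks in orange and the GFP-FLAG background as dashes. All pileups stand well above the background, and the 4 pairs lie among peaks more than 1 kb apart.

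Steps between the summits of this stretch fell mostly into a few classes of length, which were drawn after the steps were seen. Of 27 steps, 11 were 1200 to 1499 bp, 4 were 1600 to 1799 bp and 6 were 2600 to 2899 bp long, with a median of 1363 bp. No annotated gene overlapped the stretch. The nearest gene, LOC123446871, ended 0.899 kb before the first summit, and the nearest greenscreen region was 257 kb away. In both chains the background reached down to 6.91. This is the lowest value of adjacent and of other peaks alike, and it recurs on other chromosomes. The median background was 12.7 in the chain of 16 peaks and 7.09 in the chain of 12. Over all peaks the median was 10.9 and the lower quartile 9.33, so that the chain of 12 had a low background. The sequence of the stretch was not analysed here, so that it is not known whether its 28 peaks lie on separate or repeated DNA.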

How the data were processed

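DAP-seq libraries were made with VRS5-FLAG (6) and GFP-FLAG (6) as bait. The authors trimmed reads (Trimmomatic 0.39), mapped them to MorexV3 (BWA 0.7.17), called peaks of pooled VRS5-FLAG against pooled GFP-FLAG libraries (MACS2 2.2.7.1), removed peaks on greenscreen regions (bedtools) and kept q below 1e-10. The pileup signal, the fold enrichment ratio and the q-value as -log10 were deposited for each peak; the p-values deposited and the values of greenscreen regions other than their position were not used. Totals per library were not analysed here.

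Background was computed as pileup plus 1, divided by fold enrichment, minus 1. Runs joined summits under 1000 bp apart. Intervals were 95% Wilson for shares, exact Poisson for counts and order-statistic for medians; no test was made. Genes named were those with 2 or more adjacent summits of a run inside or within 1 kb, genes within 15 kb of a run of 4 or more, and genes the study names; runs named were the longest, the 5 of highest summed pileup and the most and least equal tall pairs, each with its nearest gene. The 10-fold peaks, runs with equal steps, couples of pairs, the 4H stretch and the gene with 2 runs were named after their values were seen. Members and lists were chosen with earlier results of these data known. The class of 440 to 519 bp, background classes, greenscreen window and 10-fold limit were chosen after seeing these values. So were neighbouring runs, 3 kb chains and the step classes of the 4H stretch. The run finder was tested on simulated peaks and recovered 100% of 455 planted runs. Genome sequence, motifs, gene descriptions, strands and exons were not analysed here, nor were the gene lists and the other genes of the study. Calculations used Python 3.11.15 with pandas 2.3.3, numpy 2.4.6 and scipy 1.17.1, and figures matplotlib 3.10.9.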

Additional observations from a re-analysis of the deposited data

How the results depend on the processing

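No paired analysis was possible because the libraries were pooled before peak calling and carry no value per replicate; for the same reason no replicate could be left out. With q below 1e-20, 388 adjacent peaks (1.22% of the peaks kept) and 2 runs of 3 or more remained. The median distance was 613 bp and the median pileup ratio 1.16, with 46.6% of higher peaks at higher coordinates (39.6 to 53.7). Of the runs, 13.5% lay within 15 kb of a gene (9.36 to 19.0). Inside a gene it was 0% (0 of 193 runs, which allows up to 1.55% at 3 counts). The gene shares of all peaks at this q were not computed. Under 500 bp, there were 726 adjacent peaks (0.730%), 2 runs of 3 or more, a median of 462 bp and a ratio of 1.22. Of these runs, 9.39% lay within 15 kb of a gene (6.80 to 12.8). The intervals for the side and for the shares within 15 kb include the values reported above. Under 2000 bp, there were 7782 (7.82%), 209 and 1241 bp. The counts follow from the thresholds, as do the distances under 500 and 2000 bp; for the distance at the stricter q, the ratio and the gene shares the cause was not tested. Middles in place of summits gave a median of 681 bp. The ratio was 1.21 with fold enrichment and 1.28 with the background subtracted. All annotated genes gave 13.3% of runs within 15 kb, a median of 66.6 kb and 0.868% inside a gene (14.98% and 1.36% of all peaks), and windows of 2, 5 and 100 kb gave 1.80%, 4.61% and 57.4%, by construction. The other 31 alternative values stayed within the interval, or within 1.5 times the count, of the value reported, among them all those without peaks within 1 kb of a greenscreen region. What depth limits was not tested.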
